A study of Mus musculus with 6 samples.

Results

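The genes examined carry the symbols of the constitutive proteasome. Psma and Psmb followed by a number, 16 genes, are grouped here as its 20S core, and 20 Psmc and Psmd genes as its 19S cap. The symbols also take in Psma8 and Psmb11, which are restricted to certain tissues, and the assembly chaperones Psmd5, Psmd9 and Psmd10. The genes were picked by symbol, with earlier results of these data known, and make up 36 of the 31017 genes in the deposited count table. The immunoproteasome genes Psmb8, Psmb9 and Psmb10 were left out. RNA was sequenced from mouse Th17 cells, helper T cells that secrete interleukin 17, which had been differentiated in culture. The control group held 3 libraries of genotype WT and the RTF1-deficient group 3 libraries of genotype KO. RTF1 is a transcription elongation factor that promotes ubiquitination of histone H2B. The strain, age, deleted part of Rtf1 and means of deletion are not given in the sources used here. Nor is it stated whether replicates came from separate animals, so p-values measure only the spread between these libraries, which for replicates 1 and 2 may be technical.

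The proteasome is the main protease of the cytosol and nucleus. Alpha subunits form the outer rings of the barrel-shaped 20S core and gate its entrance, and beta subunits form the inner rings, where 3 of them cut peptides. The 19S cap recognises proteins tagged with ubiquitin, removes the tag, unfolds the chain with a ring of ATPases and feeds it into the core. Because the subunits act in fixed proportions, their genes are known for being expressed together, and dividing T cells use the complex heavily to turn over cyclins and signalling inhibitors.

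Total counts ran from 16489813 to 51271226 per library, which gave each of 34 members at least 451 counts in every library. CPM stands for counts scaled to a common library total with TMM factors, and values are always listed in the order of replicates 1, 2 and 3. Rtf1 held 94.0, 91.2 and 88.3 CPM in control and 45.3, 30.4 and 26.2 CPM in KO, lower in every KO library (edgeR quasi-likelihood test, log2 fold change −1.42, SE 0.191, adjusted p = 0.000755). The T helper markers Cd3e, Cd4 and Il17a were present in every library, with Cd4 and Il17a called lower and Cd3e called higher in KO. Marker lists of B cells and of CD8 and NK cells summed to at most 10.5 CPM in any library, with Cd79b called lower in KO and 2 of the 4 CD8 and NK markers at 0 throughout. The 5 myeloid markers summed to 2.08 to 5.04 CPM in control and 16.4 to 27.3 CPM in KO, with Cd68 and Csf1r called higher. Cd68 made up most of that sum, and Itgam and Adgre1 stayed at or below 0.134 CPM in every library. All 10 proliferation genes listed were called lower in KO. Their part in the results below was not tested. Both libraries numbered 3 held Y-linked counts (11376 and 5147), and the other libraries held 1 to 3, so those numbered 3 are not repeats of the same RNA as the others. Calls in the libraries numbered 1 and 2 alone are given for the called members.

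For most constitutive proteasome genes the test found no difference between KO and control larger than the spread between libraries. Of the 36 members 35 passed the filter on low counts, and 3 of these were called at an adjusted p under 0.05. Psmd4 and Psmd10 rose and Psmd14 fell. All 3 lie in the 19S group, in which Psmd10 encodes an assembly chaperone and not a subunit of the finished cap. Across all 14268 tested genes 46.1% were called by the same rule, 23.2% higher and 22.9% lower. At mean levels of 20 CPM or more, where 34 of the members lie, 51.7% of 7169 tested genes were called; this limit was set after the values were seen. In 5 members every KO library lay on one side of every control library, which held for 57.9% of all tested genes. The largest absolute log2 fold change among the 34 members was 0.59, and 46.0% of all tested genes had a larger one.

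**Figure D1:**
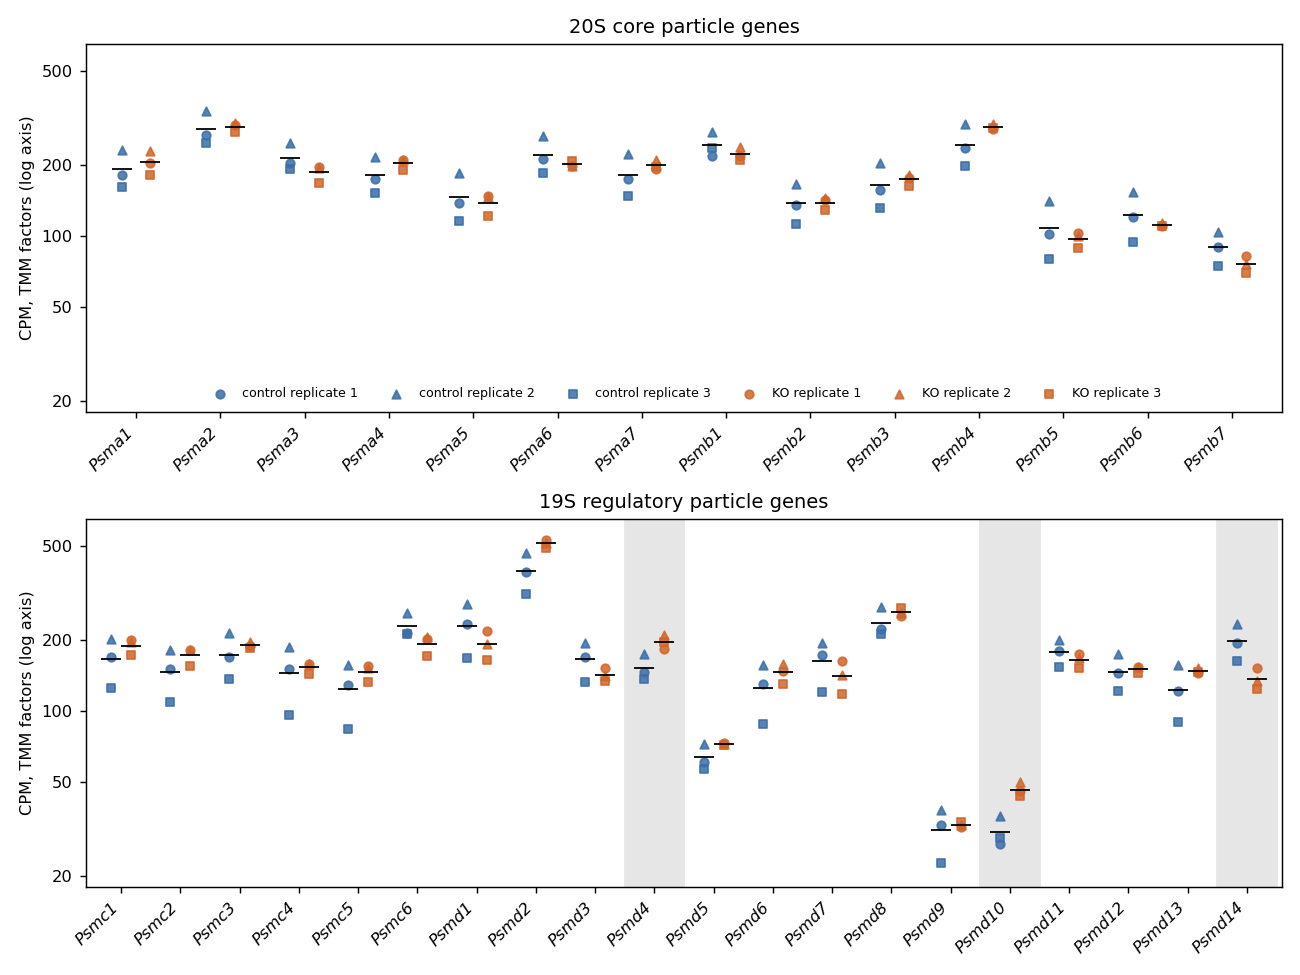
CPM (log axis) of 14 genes of the 20S core (top) and 20 of the 19S cap (bottom) in each library, with group means as black bars; Psma8 and Psmb11 are left out for their low counts. Grey columns mark the 3 genes called, Psmd4, Psmd10 and Psmd14, and in most other genes the KO points lie within the range of the control points.

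In the 20S core none of the 15 tested genes was called (edgeR; also none at an unadjusted p under 0.05, by DESeq2 or by limma-voom). Of the fold changes 8 were positive and 7 negative, and their median log2 fold change was 0.01, against 0.01 over all tested genes. Leaving out Psma8, the 95% intervals of the log2 fold change lay between −0.58 and 0.60 for all 14 others, so each interval leaves out a 2-fold change in either direction. Single control libraries bore on this count. Without control replicate 3 Psmb7 was called lower and the median was −0.20, without control replicate 1 the median was also −0.20 with no call, and without control replicate 2 Psmb4 was called higher and the median was 0.13.

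The 3 catalytic beta subunits were listed slightly lower in KO and were not called. Psmb5 carries the chymotrypsin-like activity, the target of bortezomib. It held 102.3, 141 and 80.0 CPM in control and 103, 100.4 and 89.0 CPM in KO. The KO values all lie inside the control range (log2 fold change −0.14, 95% interval −0.58 to 0.29, edgeR adjusted p = 0.56). The level of Psmb5 is uncertain, because other genes, mainly the pseudogene Gm3375, contain 54.1% of the 50-base stretches of its transcripts. Psmb6, the caspase-like subunit, held 121, 154 and 94.3 CPM in control and 110.1, 113 and 110.0 CPM in KO. Its KO libraries were nearly equal and again within the control range (−0.15, −0.53 to 0.23, adjusted p = 0.495). Psmb7, the trypsin-like subunit, held 89.4, 104 and 74.4 CPM in control and 82.0, 75.8 and 69.7 CPM in KO. Only KO replicate 3 lay below the control range, and Psmb7 had the lowest fold change of the beta family (−0.24, −0.56 to 0.08, adjusted p = 0.2).

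Among the structural beta subunits Psmb4, which takes part in core assembly, had the highest fold change. It held 236, 297 and 197 CPM in control and 283, 297 and 285 CPM in KO (log2 fold change 0.25, 95% interval −0.10 to 0.60, edgeR adjusted p = 0.218). Control replicates 1 and 3 lay below all KO libraries and control replicate 2 lay among them. Psmb1, Psmb2 and Psmb3, the remaining structural beta subunits, had log2 fold changes of −0.13, 0.01 and 0.08. Psmb11, the subunit of the proteasome of thymic epithelium, had 1 to 6 counts per library and was not tested.

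The alpha subunits form the gate of the core, and their log2 fold changes ran from −0.20 to 0.17. Psma4 held 174, 216 and 152 CPM in control and 209, 210.3 and 191 CPM in KO, the highest fold change of the family (0.17, 95% interval −0.16 to 0.49, edgeR adjusted p = 0.361). At the other end Psma3 held 203, 246 and 192 CPM in control and 196, 194 and 168 CPM in KO (−0.20, −0.50 to 0.10, adjusted p = 0.247). Both genes overlapped between the groups. Other genes hold 14.3% of the 50-base stretches of Psma4 and 15.4% of those of Psma3. Psma1, Psma2 and Psma7 had positive and Psma5 and Psma6 negative fold changes, all between −0.14 and 0.14 and none called. Psma5 is uncertain as well, because the pseudogenes Gm8394 and Gm12989 hold many of its 50-base stretches. Psma8, an alpha subunit of testis, passed the filter with 2 to 17 counts per library. It held 0.122, 0.351 and 0.38 CPM in control and 0.266, 0.32 and 0.356 CPM in KO (log2 fold change 0.03), and its interval of −1.13 to 1.18 shows that a 2-fold change was not detectable at this depth.

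In the 19S group, assembly chaperones included, 3 of 20 genes were called, 2 higher and 1 lower, and the median log2 fold change was 0.14. With 46.1% of all tested genes called, this share of 15.0% lies below the background. The rest had 95% intervals between −0.70 and 0.75. The calls depended on single control libraries. Without control replicate 3, Psmd1, Psmd3, Psmd7 and Psmd14 were called lower and Psmd10 higher, and without control replicate 2, Psmd2, Psmd4, Psmd10 and Psmd13 were called higher and none lower. Without control replicate 1 only Psmd14 was called, and without KO replicate 2 or KO replicate 3 only Psmd10 was.

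**Figure D2:**
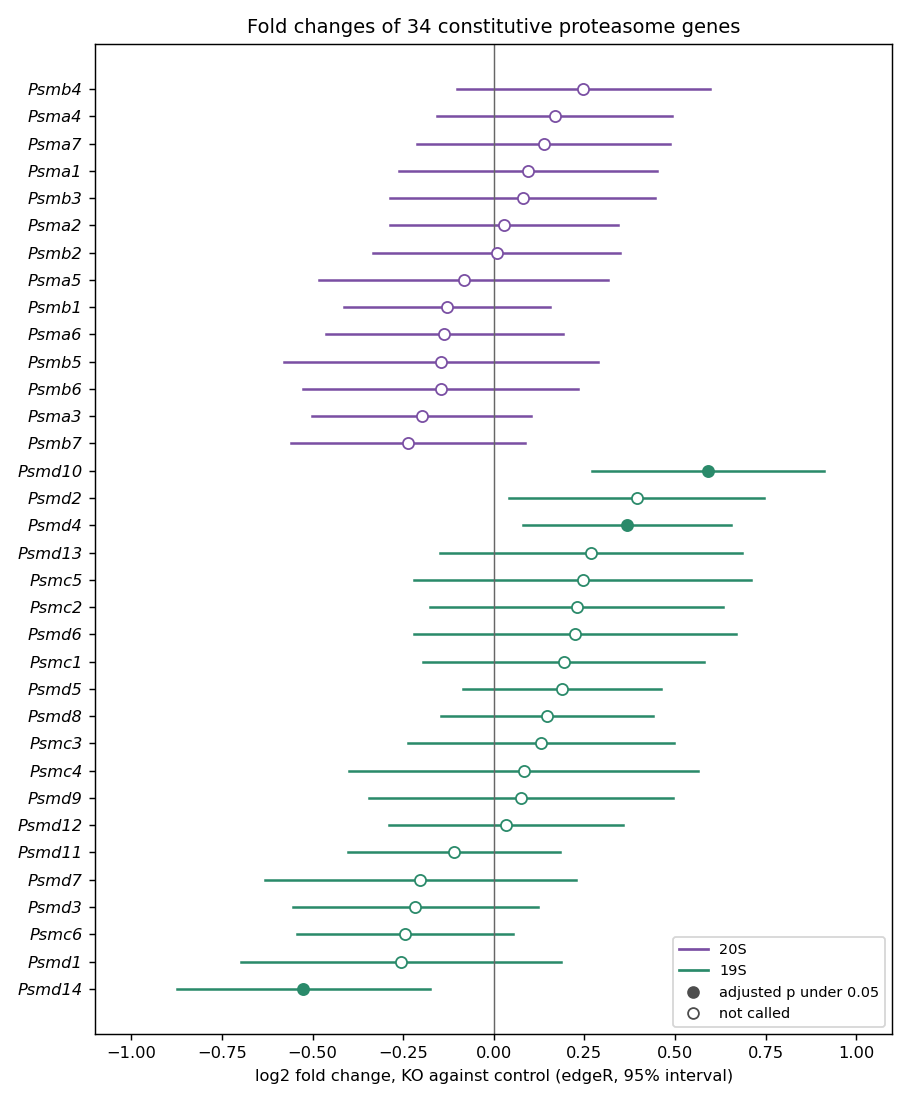
Log2 fold changes of KO against control with 95% intervals for the 34 members with at least 20 CPM, in order within the 20S core (top) and the 19S cap (bottom). Filled points are the called genes Psmd10 (0.59), Psmd4 (0.37) and Psmd14 (−0.53), and every interval lies within −1 and 1.

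The ring of 6 ATPases, Psmc1 to Psmc6, unfolds substrates, and none of its genes was called (edgeR; none at an unadjusted p under 0.05), though 5 had positive fold changes. Psmc5 held 129, 157 and 84.2 CPM in control and 154, 152 and 132 CPM in KO, the highest fold change of the family (0.24, 95% interval −0.22 to 0.71, adjusted p = 0.352). Control replicate 3 stood well below the other libraries there. Psmc6 was the exception in sign, with 214, 259 and 211 CPM in control and 202, 205 and 171 CPM in KO. All its KO libraries lay below all control libraries, but the difference was not called (−0.24, −0.54 to 0.05, adjusted p = 0.156).

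The base of the cap holds the large scaffold subunits and the receptors for ubiquitin. Psmd4, a receptor that binds ubiquitin chains, held 146, 174 and 137 CPM in control and 183, 209 and 197 CPM in KO. The groups did not overlap, with means of 152 ± 19.6 and 196 ± 13.2 CPM (SD, n = 3). Psmd4 rose to 129% of control by edgeR (0.37 on the log2 scale, SE 0.127, adjusted p = 0.041). That call did not survive 5 of the 6 removals of a single library (adjusted p up to 0.264); it was also lost by DESeq2 (0.109), with RLE size factors (0.064), without a filter (0.0632) and in the libraries numbered 1 and 2 alone (0.134). Psmd2, the scaffold that docks ubiquitin shuttles, was the most counted member, with 388, 467 and 314 CPM in control and 531, 516 and 490.2 CPM in KO. Its groups did not overlap either, but it was not called (0.39, 95% interval 0.04 to 0.75, adjusted p = 0.0643). A fit that takes equally numbered libraries as pairs (the replicate block) gave Psmd2 an adjusted p of 0.0184. It was also called when scaled by library total alone (0.0264) or with upper-quartile factors (0.049), by limma-voom (0.0481) and without control replicate 2 (0.0204). Gm5422 and Gm7642 together hold 17.8% of the 50-base stretches of Psmd2. Psmd1, the second scaffold, had a fold change of the opposite sign and was not called (234, 285 and 168 CPM in control; 219, 192 and 164 CPM in KO; −0.26, −0.70 to 0.19, adjusted p = 0.309). Adrm1, another ubiquitin receptor of the base whose symbol lies outside the family, was not called (0.12, adjusted p = 0.542), and 25.7% of its stretches occur in Gm9774.

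The lid removes ubiquitin before a protein enters the core. Psmd14, the metalloprotease that does so, lies on chromosome 2 (GRCm38, 61711694 to 61800376). It held 194, 234.5 and 163 CPM in control and 153, 134 and 124 CPM in KO. Every KO library lay below every control library, with means of 197 ± 36.01 and 137 ± 14.7 CPM (SD, n = 3). Psmd14 fell to 69.5% of control by edgeR (−0.53 on the log2 scale, SE 0.154, adjusted p = 0.0217). It was the one member called lower. The call was lost without control replicate 2 (−0.39, adjusted p = 0.0556), without KO replicate 2 (adjusted p = 0.0779) and without KO replicate 3 (adjusted p = 0.0802). It held in the libraries numbered 1 and 2 alone (−0.58, adjusted p = 0.0093). The partner of Psmd14 in the lid, Psmd7, was not called (172, 194 and 120.1 CPM in control; 162, 142 and 118 CPM in KO; −0.20, 95% interval −0.63 to 0.23). The remaining lid genes Psmd3, Psmd6, Psmd8, Psmd11, Psmd12 and Psmd13 had log2 fold changes of −0.22 to 0.27 and were not called. Sem1, the small lid subunit outside the family, had a log2 fold change of 0.28 (adjusted p = 0.0855), and an adjusted p of 0.0417 under the replicate block, 0.0275 when scaled by library total alone and 0.0249 without control replicate 2.

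The Psmd family includes 3 genes for chaperones that assemble the ATPase ring and leave before the proteasome is complete. Psmd10, which encodes gankyrin, lies on the X chromosome (GRCm38, 140948429 to 140956728) and held 27.4, 35.97 and 28.9 CPM in control and 45.6, 49.9 and 43.6 CPM in KO. The groups did not overlap, with means of 30.8 ± 4.58 and 46.4 ± 3.21 CPM (SD, n = 3). Psmd10 rose to 151% of control by edgeR (0.59 on the log2 scale, SE 0.141, adjusted p = 0.00918). The call was lost without control replicate 1 (0.44, adjusted p = 0.0912) and held in the other 5 fits that left out a library and in the libraries numbered 1 and 2 alone (0.58, adjusted p = 0.0142). Psmd5 held 61.0, 72.8 and 56.9 CPM in control and 73.0, 72.5 and 71.9 CPM in KO. Its KO libraries were nearly equal to control replicate 2 and above the other 2 control libraries (0.19, 95% interval −0.08 to 0.46, adjusted p = 0.228). Psmd9 held 33.0, 38.2 and 22.8 CPM in control and 32.2, 32.9 and 33.8 CPM in KO, inside the control range (0.08, −0.34 to 0.49, adjusted p = 0.761). Of its exonic bases 25.5% overlap Gm26745, which had no count in any library. Paaf1, a further chaperone of this step, was not analysed here.

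Per length, these 3 chaperones were the lowest members after Psma8 and Psmb11 in control. Counts were divided by the length of all merged exons in GENCODE release M21. Control means were 4.32 ± 1.08 CPM per kb for Psmd9, 8.79 ± 1.14 for Psmd5 and 20.9 ± 3.12 for Psmd10 (SD, n = 3). They ranked 34, 33 and 32 of 36 in control (34, 33 and 28 in KO), and had the same control ranks with the length of the longest protein-coding transcript, a scale added after the data were seen. In the 20S core the 14 well-counted genes ran from 26.1 CPM per kb for Psmb7 to 179 for Psma6 in control. The same genes were lowest and highest in KO, at 22.2 and 163 CPM per kb. The order is sensitive to length: with the longest coding transcript, Psma3 (75.1) was lowest and Psmb3 (214) highest in control. Psmd2 had the highest level per length of the 19S genes on both scales, 96.5 in control and 127 CPM per kb in KO with merged exons.

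The members varied together from library to library. In control, 32 of the 34 well-counted members were highest in replicate 2, intermediate in replicate 1 and lowest in replicate 3, 13 of 14 in the core and 19 of 20 in the cap. This order held for 36.2% of all tested genes with at least 20 CPM. It was not particular to the members. In the CCT chaperonin, described below, Cct2, Cct3, Cct4, Cct5, Cct7 and Cct8 had it and Tcp1 did not. Genes of the COP9 signalosome and of eIF3 were mixed. Control replicate 3 was the lowest of all 6 libraries in 25 members, and control replicate 2 the highest in 27. The median deviation of a member from its own mean was −0.04, 0.25 and −0.30 log2 units in control, and 0.06, 0.07 and −0.03 in KO. The KO libraries thus lay between the extremes of the control libraries. The medians of the proliferation genes had the same order within control, at 0.74, 0.97 and 0.17, but lay lower in KO, at −0.15, −0.78 and −0.999; their part in the pattern was not tested.

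**Figure D3:**
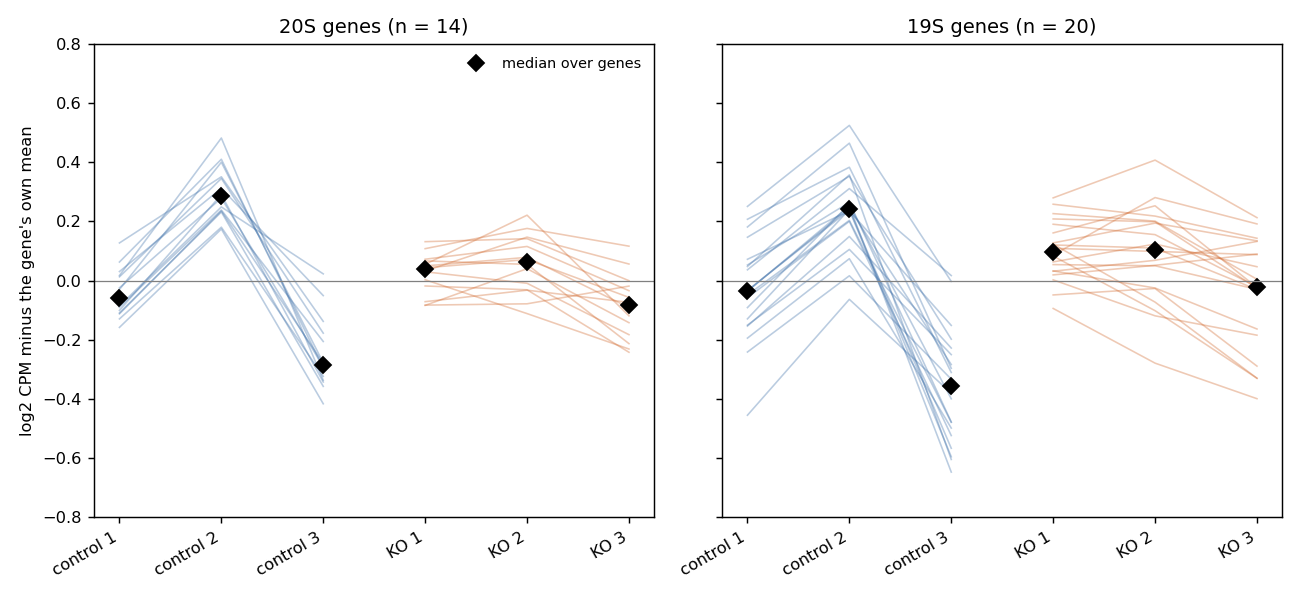
Deviation of each gene's log2 CPM from its own mean over the 6 libraries, 1 line per gene, for 14 genes of the 20S core (left) and 20 of the 19S cap (right); lines join the libraries of a group only to show 1 gene. Diamonds are medians over genes: the control libraries spread from −0.29 to 0.28 in the core, the KO libraries from −0.08 to 0.06.

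The spread was thus wide in control and narrow in KO. The median SD of log2 CPM over 3 libraries was 0.286 in control and 0.0941 in KO for the members, against 0.173 and 0.131 for all tested genes of at least 20 CPM. As a share of all counts, the 20S genes took 0.24%, 0.288% and 0.206% in control and 0.263%, 0.275% and 0.244% in KO. The 19S genes took 0.32%, 0.365% and 0.248% in control and 0.361%, 0.361% and 0.324% in KO. Both shares overlapped between the groups (core, 0.245 ± 0.0413 and 0.261 ± 0.0157; cap, 0.311 ± 0.0587 and 0.349 ± 0.0214 percent, SD, n = 3). These are bulk samples, in which more RNA per cell and more cells of 1 kind cannot be told apart.

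Levels were also set relative to the members' own median. When the median log2 CPM of the 34 members was subtracted in each library, a step chosen after the values were seen, the median SD in control dropped from 0.286 to 0.0933. In KO it went from 0.0941 to 0.0631. The median came from the same members, which varied together, so the drop is built in and is not a separate result. On this relative scale 18 of 34 members did not overlap between the groups, 10 higher and 8 lower in KO. The same subtraction left 47.5% of all tested genes without overlap, so this share is near the background. Psmd14 lay 0.20, 0.25 and 0.30 log2 units above the members' median in control and at −0.20, −0.37 and −0.31 in KO. Psmd2 moved the other way, from 1.20, 1.24 and 1.25 above the median in control to 1.60, 1.57 and 1.68 above it in KO. Psmd10 stood at −2.62, −2.46 and −2.20 log2 units in control and at −1.94, −1.80 and −1.81 in KO.

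Promoters are printed for the 3 called members and for Psmb5 and Psmb6, the catalytic genes that hold a match to the core antioxidant response element, TGACNNNGC, which NFE2L1 and NFE2L2 bind. For Psmb7, the remaining catalytic gene, no promoter was available to search. Each sequence gives the 250 bases before the RefSeq start (GRCm38.p6), 5′ to 3′ in the direction of the gene; capitals mark TGACNNNGC or CCAAT, the box bound by NF-Y, on either strand.
Psmd14 (chr2:61711444-61711693, plus strand): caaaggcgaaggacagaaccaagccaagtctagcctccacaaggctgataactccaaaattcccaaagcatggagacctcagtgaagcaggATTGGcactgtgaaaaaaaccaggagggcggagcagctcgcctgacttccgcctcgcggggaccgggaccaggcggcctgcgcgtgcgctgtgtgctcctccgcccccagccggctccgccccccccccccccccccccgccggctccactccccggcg
Psmd4 (chr3:95042615-95042864, minus strand): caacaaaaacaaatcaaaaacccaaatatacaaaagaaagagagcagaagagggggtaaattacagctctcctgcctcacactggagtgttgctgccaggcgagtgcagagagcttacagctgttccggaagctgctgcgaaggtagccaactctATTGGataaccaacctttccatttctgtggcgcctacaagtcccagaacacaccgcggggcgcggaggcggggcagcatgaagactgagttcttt
Psmd10 (chrX:140956712-140956961, minus strand): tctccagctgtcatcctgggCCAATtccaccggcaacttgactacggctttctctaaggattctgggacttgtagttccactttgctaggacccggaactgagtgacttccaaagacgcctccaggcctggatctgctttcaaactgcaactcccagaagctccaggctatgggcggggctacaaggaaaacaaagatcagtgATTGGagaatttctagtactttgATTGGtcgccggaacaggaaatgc
Psmb5 (chr14:54617996-54618245, minus strand): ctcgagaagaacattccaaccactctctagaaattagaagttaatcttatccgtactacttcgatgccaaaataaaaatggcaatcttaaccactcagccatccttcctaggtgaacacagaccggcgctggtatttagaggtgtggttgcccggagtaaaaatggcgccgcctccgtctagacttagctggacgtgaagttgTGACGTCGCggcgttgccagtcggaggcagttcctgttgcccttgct
Psmb6 (chr11:70525107-70525356, plus strand): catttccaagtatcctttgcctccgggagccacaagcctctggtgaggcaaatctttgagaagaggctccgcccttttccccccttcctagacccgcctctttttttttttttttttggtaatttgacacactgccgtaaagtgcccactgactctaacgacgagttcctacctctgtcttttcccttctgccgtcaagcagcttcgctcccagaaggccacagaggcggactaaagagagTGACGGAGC

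The RefSeq table held 31 promoters for 29 of the 36 members. TGACNNNGC matched 5 of them (16.1%), those of Psmb5, Psmb6, Psmc6, Psmd9 and Psmd12, against 10.2% of all 32851 promoters of the same length. None of these 5 genes was called, with log2 fold changes of −0.24 to 0.08. CCAAT matched 12 member promoters (38.7%), against 33.8% of all, and all 3 called members were among them. No member promoter held both motifs, so they do not overlap. A match describes the letters only.

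The factors that act on such promoters were listed as 11 genes, of which 5 were called higher and none lower, a share of 45.5% called beside 46.1% of all tested genes. Nfe2l1, the factor known to raise proteasome genes when degradation fails, held 171, 159.8 and 171 CPM in control and 173, 175 and 197 CPM in KO. All its KO libraries lay just above the control libraries, and it was not called (log2 fold change 0.12, 95% interval −0.12 to 0.36, edgeR adjusted p = 0.383). Nfe2l2, the factor of the oxidative stress response, held 47.0, 53.6 and 71.2 CPM in control and 88.3, 122.6 and 128 CPM in KO. All its KO libraries lay above all control libraries and it rose (0.98, SE 0.19, adjusted p = 0.0037). Mafk, a small partner that NFE2L proteins need to bind DNA, rose from 26.7, 25.7 and 24.1 to 55.8, 60.6 and 59.9 CPM (1.20, adjusted p = 2.0e-04). Bach1, a repressor that competes for the same element, rose from 9.18, 7.80 and 8.86 to 18.9, 20.9 and 25.6 CPM (1.34, adjusted p = 0.000595), the largest increase of this list. Ngly1, the enzyme that processes NFE2L1, and Nfe2l3 were called higher too (0.55 and 1.31), and each call was lost on removal of a single library in 4 of 6 cases. Nfya, Nfyb and Nfyc, the subunits of NF-Y, were not called, though Nfyc (−0.45) and the partner gene Mafg (−0.29) had adjusted p-values of 0.0307 and 0.0395 under the replicate block.

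Chaperones that assemble the 20S core were listed as 5 genes, of which 3 were called lower and none higher, with a median log2 fold change of −0.50; of all tested genes 46.1% were called, 22.9% lower. Psmg1, which forms a heterodimer with PSMG2 that templates the alpha ring, held 44.6, 50.9 and 41.1 CPM in control and 27.5, 20.9 and 18.05 CPM in KO. The groups did not overlap, and Psmg1 fell by 1.04 on the log2 scale (SE 0.176, edgeR adjusted p = 0.00199). Psmg2 fell from 42.5, 54.3 and 38.7 to 35.3, 33.8 and 26.3 CPM (−0.50, adjusted p = 0.0383), but its call was lost when libraries were scaled by total alone (adjusted p = 0.0728) and on removal of control replicate 1 or 2 or of KO replicate 2 or 3. Psmg4 fell from 16.96, 23.7 and 16.1 to 13.3, 11.1 and 9.56 CPM (−0.74, adjusted p = 0.0164), and lost its call without control replicate 2, KO replicate 2 or KO replicate 3. Psmg3, the partner of PSMG4, was not called (−0.07, 95% interval −0.49 to 0.35). Pomp, the factor that completes the core and is then its first substrate, held 179.5, 209.9 and 154 CPM in control and 218, 210.1 and 209 CPM in KO, and was not called (0.23, −0.07 to 0.53, adjusted p = 0.185).

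**Figure D4:**
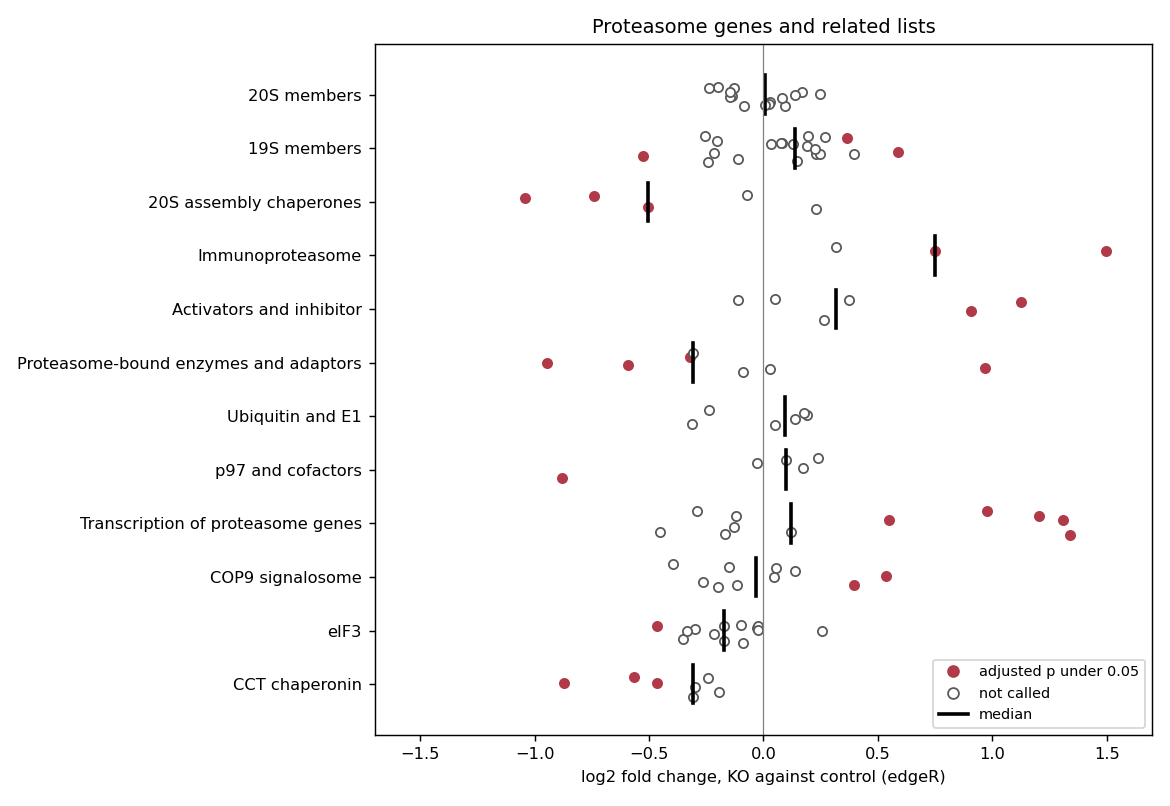
Log2 fold changes of KO against control for the tested genes of the 20S core, the 19S cap and 10 related lists, 1 point per gene with vertical jitter; filled points were called at an adjusted p under 0.05 and black bars are medians. The core has no filled point, while the core's assembly chaperones reach −1.04 and the immunoproteasome genes 1.49.

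The immunoproteasome subunits, which can replace the catalytic ones and are raised by interferon, had 2 of 3 genes called higher, where 23.2% of all tested genes were. All 3 genes were counted in control as well, Psmb8 at a mean of 192 CPM. Psmb10 rose from 23.4, 30.8 and 19.1 to 65.3, 64.6 and 77.2 CPM (log2 fold change 1.49, SE 0.182, edgeR adjusted p = 0.000521), and Psmb9 from 48.4, 64.7 and 62.7 to 96.5, 86.3 and 113 CPM (0.75, adjusted p = 0.00431). Psmb8 was called only with the replicate block (0.32, adjusted p = 0.115, and 0.0471 with the block) or when libraries were scaled by total alone (adjusted p = 0.0407). Differences between these genes and their constitutive counterparts were not tested.

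Caps other than 19S were listed as 6 genes with the inhibitor Psmf1, of which 2 were called higher (23.2% of all tested genes). Psme2, a subunit of the interferon-induced activator ring, rose from 115, 164 and 145 to 243, 249.97 and 306 CPM (0.91, edgeR adjusted p = 0.00227). It shares 28.3% of its stretches with its copy Psme2b, which was called higher as well (1.12), so the division of reads between them is uncertain. Its partner Psme1 was not called (125, 168 and 155 CPM in control; 175, 191 and 215 CPM in KO; 0.37, adjusted p = 0.0575), with an adjusted p of 0.0164 under the replicate block, 0.0189 when scaled by library total alone and 0.0437 without control replicate 2. Psme3, the nuclear activator, and Psme4, the activator PA200, were not called (0.05 and 0.26), though Psme4 was when scaled by library total alone (adjusted p = 0.027). Their control libraries held 248, 268 and 176 CPM and 169, 169 and 189 CPM, and their KO libraries 257, 237 and 222 CPM and 203, 219.5 and 211 CPM. The Psme3 groups overlapped and those of Psme4 did not.

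Of 7 enzymes and adaptors that bind the proteasome, 3 were called lower and 1 higher, 57.1% called beside 46.1% of all tested genes. Uchl5, a deubiquitinase docked on ADRM1, fell from 140.3, 139 and 110.5 to 79.8, 62.4 and 59.9 CPM (−0.95, SE 0.15, edgeR adjusted p = 0.00154). Usp14, the deubiquitinase docked on PSMD2, fell from 117, 119.6 and 104 to 83.4, 75.6 and 66.7 CPM (−0.59, adjusted p = 0.00464); 25.4% of its 50-base stretches occur in Thoc1, which it overlaps. AI314180, the gene of the quality control factor ECM29, was called lower by a smaller step (−0.32, adjusted p = 0.0295), and was no longer called on removal of any KO library, in the libraries numbered 1 and 2 alone (0.105), when scaled by library total alone (0.0917) or without a filter (0.0588). Zfand5, which stimulates degradation by the proteasome, rose from 63.4, 59.5 and 66.0 to 116, 129.8 and 122.97 CPM (0.97, adjusted p = 0.000328).

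Shuttle proteins carry ubiquitinated substrates to the cap. Of 6 tested shuttle genes 1 was called higher and 2 lower, 50% called beside 46.1% of all tested genes. Ubqln2, on the X chromosome, rose from 44.7, 48.2 and 40.1 to 77.7, 86.0 and 80.7 CPM (0.88, edgeR adjusted p = 0.000688). Among p97 and its cofactors, which extract substrates from complexes, Faf1 alone of 5 was called (81.5, 92.5 and 84.8 CPM in control; 49.8, 47.1 and 43.4 CPM in KO; −0.88, adjusted p = 0.000587). None of the 6 genes for ubiquitin and its activating enzymes was called (edgeR; none at an unadjusted p under 0.05), the polyubiquitin gene Ubb included (0.19, adjusted p = 0.269). By the same rule 46.1% of all tested genes were called, beside 20% of the p97 list. An edgeR unadjusted p under 0.05 was found for 54.1% of all tested genes.

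Other large complexes were set beside the members as a description. The COP9 signalosome and the eIF3 complex share the architecture of the 19S lid. In the signalosome 2 of 10 genes were called, both higher (Cops9, 0.53), with a median of −0.03, and in eIF3 1 of 13, Eif3c (−0.46), with a median of −0.17. The Cops9 call was lost without control replicate 1 (adjusted p = 0.107), and that of Eif3c without KO replicate 2 (0.0505) or KO replicate 3 (0.0526). The CCT chaperonin, a ring that folds proteins, had 3 of 7 tested genes called lower, Tcp1 with the largest change (743, 906 and 793 CPM in control; 504, 435 and 396 CPM in KO; −0.87, edgeR adjusted p = 0.00167), and a median of −0.31. Of 82 tested genes for cytosolic ribosomal proteins 6 were called lower and none higher, Rpl22l1 with the largest called change (−1.35), with a median of −0.11. All these shares, 7.32% to 42.9%, lay below the 46.1% of all tested genes, as did the 8.57% of the 35 tested members; differences between the lists were not tested.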

How the data were processed

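RNA-seq counts of 3 control and 3 KO libraries were analysed, with groups and replicate numbers from the sample titles. The authors deposited whole-number counts per gene symbol without normalization; the submitters' processing notes name STAR, featureCounts, DESeq2 and mm10, without versions or roles. The annotation, strand setting and handling of multiply mapped reads are not given in the sources used here. Antisense and overlapping genes can therefore share reads. Members and lists were chosen with earlier results of these data known.

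The whole table was fitted with edgeR 4.0.16 (R 4.3.3): TMM factors, filterByExpr by group (14268 genes with 99.94% of counts), quasi-likelihood test, Benjamini-Hochberg adjustment over all tested genes. The SE is the absolute log2 fold change over the square root of F, and the 95% intervals use it with the test's t quantile. Genes with values were fixed by rule: the catalytic subunits, tissue-restricted members, the extremes of each family, Psmd4, Psmd5, Psmd9, Psmd10, Psmd14, and the largest called changes of each related list. Psmd1, Psmd2, Psmd7, Sem1, Adrm1 and others were named after their values were seen. Deviations of equally numbered libraries from their group means correlated (0.27, 0.13 and 0.379), while control 2 correlated more with KO 1 (0.204) than with KO 2. All calls come from the fit without pairs, and the fit with the number as a block is an alternative; the labels do not state a shared origin. Gene models and 50-base stretches came from GENCODE M21 (GRCm38, the mm10 assembly). Alternatives were other scalings and filters, DESeq2 1.42.0, limma-voom (limma 3.58.1), the replicate block and left-out libraries. No 2 libraries were alike within counting noise. Results for some listed genes are not reported here.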

Additional observations from a re-analysis of the deposited data

How the results depend on the processing

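Of the calls among members, Psmd10 and Psmd14 were kept under the other scalings, filters and tools, and Psmd4 was not: 19S genes called higher numbered 1 with RLE size factors, with no filter, by DESeq2 and in the libraries numbered 1 and 2 alone. With the replicate block the 19S genes called higher numbered 3, Psmd2 being added (adjusted p = 0.0184). The number was also 3, again with Psmd2, by limma-voom, with upper-quartile factors and when scaled by library total alone. Among the related genes outside the other large complexes, the block gave calls to Psmb8, Psme1, Sem1, Txnl1, Nfyc and Mafg. Within those complexes it added Cops7a (adjusted p = 0.0195), Eif3j1 (0.0173), Eif3m (0.0287) and Cct4 (0.0417). It also added several genes for cytosolic ribosomal proteins, Rpl31 (0.0195) among them. Over all tested genes, 7628 were called with the block, against 6574 without it. Removal of 1 library gave 0 to 4 19S genes called higher, 0 to 4 called lower, 0 to 1 20S genes called higher and 0 to 1 called lower, and moved the 20S median log2 fold change from −0.20 to 0.13; the 19S median ranged from −0.058 to 0.29.

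Small fold changes of genes not called also turned sign, and the cause was not tested. Psma8 was tested in only 3 of the 6 fits with a library removed. With 1 library removed the log2 fold changes ranged as follows: Psma1 −0.076 to 0.24, Psma2 −0.13 to 0.15, Psma4 −0.0039 to 0.30, Psma5 −0.29 to 0.11, Psma6 −0.31 to 0.0067, Psma7 −0.055 to 0.29, Psma8 −0.29 to 0.14, Psmb2 −0.18 to 0.15, Psmb3 −0.12 to 0.26, Psmb5 −0.39 to 0.087, Psmb6 −0.37 to 0.034, Psmc1 −0.033 to 0.35, Psmc2 −0.0074 to 0.39, Psmc3 −0.079 to 0.30, Psmc4 −0.20 to 0.30, Psmc5 −0.030 to 0.45, Psmd6 −0.036 to 0.41, Psmd9 −0.17 to 0.23, Psmd12 −0.15 to 0.17, Psme3 −0.17 to 0.16 and Adrm1 −0.096 to 0.24. In the libraries numbered 1 and 2 alone they were Psma2 −0.029, Psmb2 −0.074, Psmb3 −0.018, Psmc3 −0.0032, Psmc4 −0.099, Psmd9 −0.13, Psmd12 −0.063, Psme3 −0.065 and Adrm1 −0.017. Psma5 was at 0.0090 with library size only, and Psmb2 at −0.0072 with RLE size factors, −0.0055 with upper-quartile factors, −0.0039 with no filter and −0.020 by DESeq2. With 3 libraries a group, the median SE of the members' log2 fold changes was 0.154, which limits how small a change could be called.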
